A study of Mus musculus with 12 samples.

Results

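Embryonic stem (ES) cells that lack Terc, the RNA template of telomerase, were compared with wild-type (WT) ES cells on day 8 of differentiation. The comparison held 4 of the 12 arrays of the series, namely 2 arrays titled as Terc knockout (KO) cells at day 8 and 2 arrays titled as WT cells at day 8. The arrays were chosen by these titles alone. All cells were of the C57BL/6 background, and the KO cells carried a homozygous Terc deletion. The labels of day 0 name the lines, which are F35 from generation G3 and A49 from generation G4 of the Terc-deficient breeding for KO, and N12 and N33 for WT. The labels of day 8 name neither line nor generation. The paper describes its arrays as G4 KO against WT cells in duplicates during differentiation, and gives A49 as its G4 line. The day 0 labels, which also name F35 from G3, differ from that description. Cells were kept on mouse embryonic fibroblast feeders, cultured as hanging drops without leukemia inhibitory factor for 4 days to form embryoid bodies, and then grown attached in plates. The other 8 arrays held 2 KO and 2 WT samples at day 0 and 2 KO and 2 WT samples at day 15.

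Telomerase adds telomere repeats to chromosome ends, and cells without it lose telomere length over divisions and over generations of breeding. An ES cell leaves the pluripotent state when the network around Pou5f1, Nanog, Esrrb and the Klf factors is turned down. In an embryoid body it then passes through states like the epiblast and the primitive streak before mesoderm, endoderm and ectoderm appear. Nodal holds the epiblast and drives mesendoderm, whereas BMP ligands acting through Smad1, Smad5 and Smad9 drive mesoderm and surface ectoderm, the source of epidermis. Follistatin, Cer1 and the Lefty proteins are secreted antagonists of this ligand family.

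The values were gene intensities in arbitrary units, and the 4 arrays of day 8 had similar medians, 51.8 to 51.9 in KO and 50.7 to 51.3 in WT. Differences are given as log2 of KO over WT, with the standard error (SE) of the fit, and n was 2 arrays for each group. The 2 WT arrays lay farther apart than the 2 KO arrays. The median absolute difference between the arrays of a pair was 0.12 log2 units in KO and 0.19 in WT, and 66 probe sets were over 2-fold apart in KO against 1023 in WT, of 45037. The annotation names no probe set for Terc, so the deletion itself was not read on these arrays. The titles number the 2 arrays of a group as biological replicates. For day 8 the labels do not say whether these were separate lines or cultures of 1 line. The p-values therefore rest on spread between arrays, which may not be spread between lines. That spread was pooled over the array pairs of all days, so it is not the spread of the day 8 arrays alone. By probe sets over 2-fold apart, the WT pair of day 8 was the widest of these pairs.

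At day 8 the linear models for microarrays (limma) fitted over all 12 arrays called 231 probe sets higher and 277 lower in KO, which is 0.513% and 0.615% of the probe sets tested, at an adjusted p under 0.05. Read at 1 probe set for each of 18193 genes, 140 genes were higher and 140 lower, 0.77% and 0.77% of the genes. The probe set read for a gene was its brightest over the 12 arrays, and where a call on any probe set of a gene was counted, a setting added after the values were seen, 166 genes were higher and 188 lower. In all 280 of these genes both KO arrays lay on 1 side of both WT arrays. Among all genes, both KO arrays lay above both WT arrays in 27.2% and below both in 18.5%, so an absence of overlap was common at this number of arrays. The shares differed with level. Of 9005 genes with a mean of at least 100 on chromosomes other than 6, 1597 lay above and 2259 (25.1%) below. Counts in the gene lists below are to be read beside these shares, and the lists were chosen with earlier results of these data known. A gap of at least 2-fold between the nearest KO and WT arrays was seen for 99 probe sets with KO above (0.22%) and 89 with KO below (0.198%). Of these, limma called 68 and 58. The calls depended on which array was left out. Without KO replicate 1 the fit called 6 higher and 4 lower probe sets, without KO replicate 2 it called 1 and 4, without WT replicate 1 it called 1051 and 1574, and without WT replicate 2 it called 122 and 237.

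**Figure D1:**
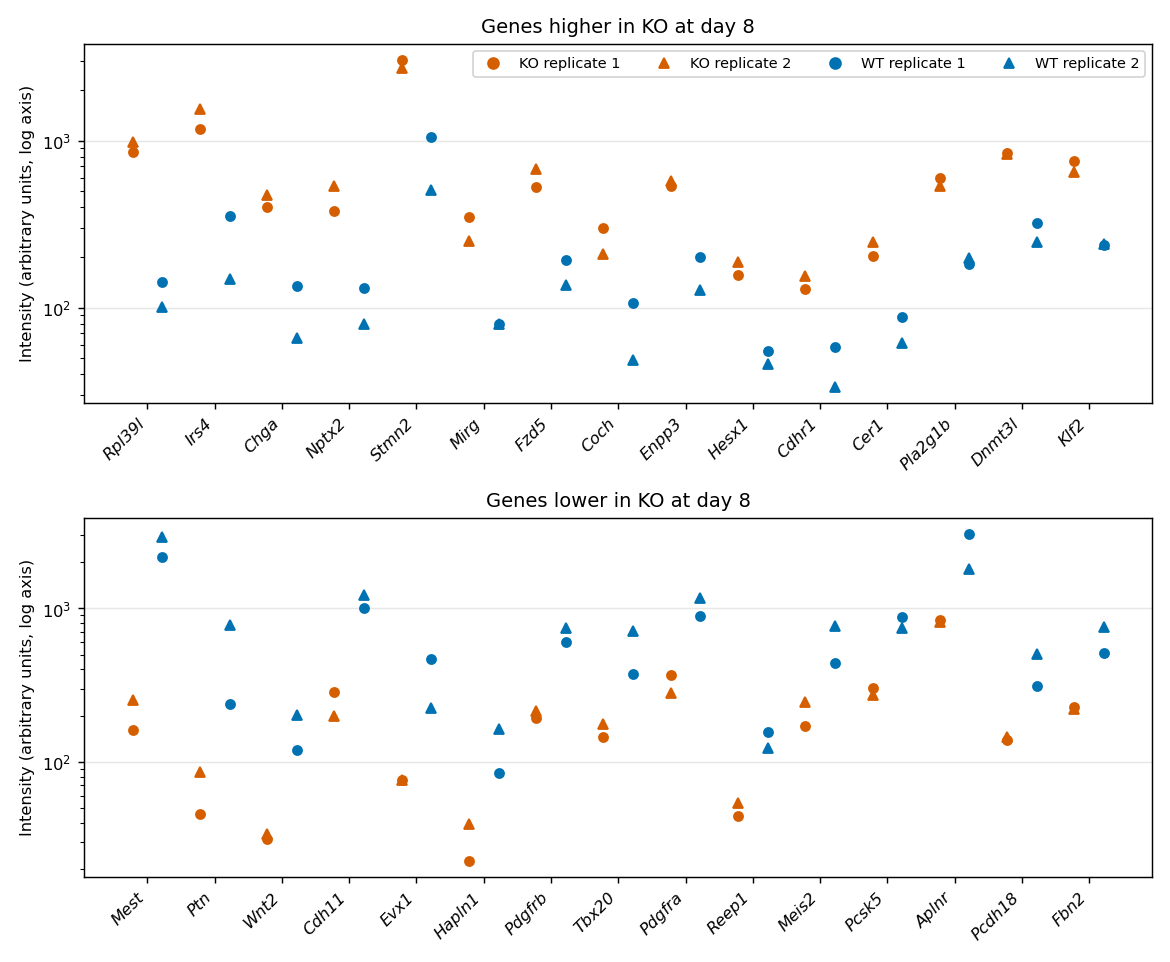
Intensity (arbitrary units, log axis) of the 15 genes with the largest higher and the 15 with the largest lower differences among called genes with a group mean of at least 100, on the 4 arrays of day 8. Each point is 1 array, KO in orange left of WT in blue, circles for replicate 1 and triangles for replicate 2, and no KO point overlaps the WT points of its gene.

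Among the 15 called genes with the largest higher differences in KO, Rpl39l, a copy of the ribosomal protein gene Rpl39 known from the male germline, read 849.9 and 975 in the KO arrays, against 143 and 100.3 in the WT arrays, a difference of 2.93 ± 0.51 (limma, adjusted p = 0.037). Probes for Rpl39l may also read its near-identical relative, so this value is uncertain. Irs4, an adaptor of the insulin and IGF receptors on the X chromosome, read 1172 and 1557 in the KO arrays, against 355 and 149 in the WT arrays (2.56 ± 0.34). Both KO values of Irs4 were more than 3 times the higher WT value. A dimmer probe set of Irs4 was not called (0.26). Chga, the chromogranin of secretory granules, read 398 and 469.6 in the KO arrays, against 134 and 66.1 in the WT arrays (2.20 ± 0.30). Nptx2, a secreted pentraxin of synapses, read 378 and 532 in the KO arrays, against 131 and 79.8 in the WT arrays (2.13 ± 0.29), and Stmn2, a tubulin-binding protein of growing axons, read 3028 and 2725 in the KO arrays, against 1048 and 504 in the WT arrays (1.98 ± 0.37). In these 3 genes WT replicate 1 lay above WT replicate 2, and both lay below KO.

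Fzd5, a Wnt receptor, averaged 3.67 times its WT level in KO cells, with 527 and 679.9 in the KO arrays, against 193 and 136 in the WT arrays. Hesx1, a homeobox factor of the anterior embryo, read 156 and 188 in the KO arrays, against 55 and 45.8 in the WT arrays (1.77 ± 0.18, limma adjusted p = 0.0044), a narrow spread in both groups. Pla2g1b, a secreted phospholipase, read 595 and 537 in the KO arrays, against 181 and 197 in the WT arrays. Coch, a secreted protein of the inner ear, read 299 and 209 in the KO arrays, against 106 and 48.2 in the WT arrays. Enpp3, an ectonucleotidase, differed by 1.79, and Cdhr1, a photoreceptor cadherin, by 1.69. Of 4 other probe sets of Enpp3, 1 was called higher too and 2 were flat between the groups. Mirg, Cer1, Dnmt3l and Klf2 are described with their groups below.

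Pluripotency factors stood above WT as a group. Of 15 measured factors 2 were called higher and none lower, beside 0.77% of all genes, and 12 of 15 had both KO arrays above both WT arrays, beside 27.2%. Their median difference was 0.81, against 0.03 over all genes. Klf2, a factor of the naive state, read 757 and 648 in the KO arrays, against 237 and 242 in the WT arrays, a 2.94-fold difference (limma, adjusted p = 0.011). Esrrb, an orphan nuclear receptor that sustains self-renewal, read 339.9 and 307 in the KO arrays, against 145 and 146 in the WT arrays (1.15 ± 0.22). These 2 were the calls, and each pair of arrays was tight. On its 2 other probe sets, both dimmer, Esrrb was not called, with differences of 0.37 and 0.12. Pou5f1, the central factor Oct4, read 2719 and 2559.9 in the KO arrays, against 2090.5 and 1165 in the WT arrays, a difference of 0.76 ± 0.39 that did not pass (adjusted p = 0.44). Nanog read 1561 and 1341 in the KO arrays, against 1024 and 664 in the WT arrays (0.81 ± 0.36, adjusted p = 0.35). For both genes the KO arrays were close together and the WT arrays were spread, with replicate 2 the lower. Pou5f1 stood at percentile 97.7 of all probe sets in KO and 95.8 in WT, so it was among the bright genes in both. Nr0b1 (1.42 ± 0.34) and Tcl1 (1.16 ± 0.27), which are targets or partners of this network, also lay above both WT arrays without passing.

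The lists of ES cell associated and primed epiblast genes also held calls. Among 11 ES cell associated genes 1 was called higher and 9 lay above both WT arrays, with a median difference of 0.90. The call was Gdf3, a TGF-beta family ligand, at 277 and 252 in the KO arrays, against 135 and 137 in the WT arrays (0.96 ± 0.15, adjusted p = 0.017). Fgf4, the FGF ligand that primes ES cells for differentiation, read 806 and 729.5 in the KO arrays, against 240.2 and 276 in the WT arrays, with a difference of 1.57 ± 0.54 that did not pass, while a dimmer probe set of it was called higher (1.24, limma adjusted p = 0.0093). Of 9 factors of the primed epiblast 1 was called higher and 6 lay above both WT arrays, with a median of 0.69. Pou3f1, the epiblast and neural POU factor Oct6, was the call at 927 and 1084 in the KO arrays, against 494 and 297 in the WT arrays (1.39 ± 0.27, adjusted p = 0.044). Otx2, a homeobox factor of epiblast and forebrain, read 1301 and 1275 in the KO arrays, against 763 and 288 in the WT arrays and did not pass. In these epiblast genes WT replicate 1 lay nearer to KO than WT replicate 2 did, and the median of the 9 was 0.82 log2 units lower in WT replicate 2 than in WT replicate 1. Hmga2, a chromatin protein of fetal cells, went the other way and was called lower in KO, at 1504 and 1572 in the KO arrays, against 2979.5 and 3335 in the WT arrays (-1.04 ± 0.18).

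Both called genes of the Nodal axis were antagonists, and both were higher in KO. Lefty1 read 1067 and 1043 in the KO arrays, against 428 and 449.8 in the WT arrays, a 2.4-fold difference (1.27 ± 0.17, limma adjusted p = 0.0088). Cer1 read 202 and 247 in the KO arrays, against 87.6 and 61 in the WT arrays, a 3.02-fold difference (1.61 ± 0.21, adjusted p = 0.0091). They were the 2 calls among 13 measured genes of the Nodal and activin axis. Of the 13 genes, 4 lay above both WT arrays and 3 below, beside 27.2% and 18.5% of all genes, with a median of 0.10. Nodal itself read 1732 and 1778 in the KO arrays, against 1118 and 771 in the WT arrays (0.92 ± 0.28, adjusted p = 0.17), with no overlap and no call. Fst, which encodes follistatin, read 267 and 208 in the KO arrays, against 429 and 400.3 in the WT arrays. Both KO values of Fst were below both WT values, and the difference of -0.81 ± 0.32 did not pass (adjusted p = 0.28).

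Of 13 BMP ligands, receptors and Smads 1 was called lower and none higher, and the median was -0.17. Below both WT arrays lay 7 of them, beside 18.5% of all genes and 25.1% of genes with a mean of at least 100 outside chromosome 6. The call was Bmp5, a ligand of mesoderm and cartilage, at 208 and 210.3 in the KO arrays, against 416 and 357 in the WT arrays (-0.88 ± 0.16, limma adjusted p = 0.028). Bmp4, the ligand that induces mesoderm and epidermis, read 975 and 1255 in the KO arrays, against 1818 and 2124 in the WT arrays, a difference of -0.83 ± 0.22 that did not pass (adjusted p = 0.11). The receptors Bmpr1a and Bmpr2 differed by -0.13 ± 0.11 and -0.39 ± 0.19, neither with a call. Of 12 BMP targets 1 was called lower, 8 lay below both WT arrays and none above, and the median was -0.35. It was Smad6, an inhibitory Smad induced by BMP, at 234 and 197 in the KO arrays, against 630.2 and 477 in the WT arrays, so that WT averaged 2.57 times the KO level (-1.35 ± 0.19, adjusted p = 0.011). Smad7, the other inhibitory Smad, read 725 and 641 in the KO arrays, against 701 and 773 in the WT arrays, and its groups overlapped. Bambi, a decoy receptor, differed by -0.74 ± 0.19 and Id1, an inhibitor of helix-loop-helix factors, by -0.59 ± 0.21. Neither passed, and the KO arrays of both lay below the WT arrays.

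The promoter of Smad6 is shown because this gene was the BMP target called at day 8 and its start site carries the palindromic Smad box GTCTAGAC. The stretch covers 250 bases before the gene start and 30 after it (RefSeq, build GRCm38.p6, chr9:64022030-64022309, minus strand), with the box in capitals.
Smad6: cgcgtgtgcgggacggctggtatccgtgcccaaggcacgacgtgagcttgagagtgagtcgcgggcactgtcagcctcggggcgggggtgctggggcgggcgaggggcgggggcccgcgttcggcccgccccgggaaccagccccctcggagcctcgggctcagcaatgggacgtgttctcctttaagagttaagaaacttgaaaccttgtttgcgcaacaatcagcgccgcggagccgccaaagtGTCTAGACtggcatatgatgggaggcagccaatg
The box begins 4 bases before the start. On windows of 280 bases it occurred in 63 of 32851 promoters (0.192%), and among the windows of the 140 genes lower in KO, 119 of which had a window, it also occurred at Reep1. A match says only that these letters are in the window, and binding was not measured here.

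The lists of other growth factor pathways held few calls. Sfrp1, a secreted Wnt inhibitor, was higher at 940.4 and 1018 in the KO arrays, against 409 and 431 in the WT arrays (1.22 ± 0.24, limma adjusted p = 0.042). Of 4 other probe sets of Sfrp1, 1 was called higher too (1.04), and the rest differed by 0.51 to 1.28 without a call. Sfrp1 was the 1 call in the list of 18 Wnt genes, which does not hold Fzd5 or Wnt2. In that list 5 genes lay above and 7 below both WT arrays. Wnt5a, a ligand of the noncanonical pathway, read 287 and 203 in the KO arrays, against 598 and 453 in the WT arrays, and Wnt8a, a ligand of the primitive streak, read 122 and 114 in the KO arrays, against 75.9 and 51.5 in the WT arrays. Neither passed, and they lay on opposite sides. On other probe sets Wnt5a was called lower, at -1.33 and -1.09 (limma adjusted p = 0.015 and 0.023), and Sfrp5, another list member, named here after its values were seen, was called higher. Fgfr3, an FGF receptor, was called lower at 121 and 122 in the KO arrays, against 210.0 and 230.2 in the WT arrays (-0.85 ± 0.12, limma adjusted p = 0.0094). A dimmer probe set of Fgfr3 lay the other way (0.42) without a call. Fgfr2 differed by -0.70 ± 0.20 without a call. In the IGF list Igfbp4, a secreted binding protein, was called lower at 2777 and 2516 in the KO arrays, against 4913 and 4547 in the WT arrays (-0.84 ± 0.16), opposite to Irs4, and 7 of the 11 genes lay below both WT arrays, with a median of -0.42. Igf1r, the receptor, was among the 7 at -0.59 ± 0.15, without a call. No gene of the 11 TGF-beta ligands, receptors and latency proteins was called. Tgfbi, a matrix protein induced by TGF-beta, read 241 and 325 in the KO arrays, against 533 and 1915 in the WT arrays, and WT replicate 2 alone stood far above the other arrays.

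Of the 15 largest lower calls, 10 lay outside chromosome 6. Cdh11, the cadherin of mesenchyme, read 287 and 198 in the KO arrays, against 1003 and 1223 in the WT arrays, and WT averaged 4.59 times the KO level (-2.22 ± 0.34, limma adjusted p = 0.021). The PDGF receptors of mesoderm and stroma were both lower. Pdgfra read 367 and 280.1 in the KO arrays, against 895 and 1164 in the WT arrays (-1.67 ± 0.21, adjusted p = 0.0083), and Pdgfrb read 192 and 215 in the KO arrays, against 602 and 748 in the WT arrays (-1.72 ± 0.25). Their KO and WT arrays were separated by more than 2-fold. Tbx20, a T-box factor of the heart, read 145 and 175 in the KO arrays, against 373 and 715 in the WT arrays (-1.70 ± 0.31), Meis2, a Hox cofactor, read 172 and 244 in the KO arrays, against 444 and 763 in the WT arrays (-1.50 ± 0.28), and Aplnr, the apelin receptor of early mesoderm, read 842 and 816 in the KO arrays, against 3039 and 1803 in the WT arrays (-1.50 ± 0.25). WT replicate 2 was the higher WT array for Tbx20 and Meis2 and the lower one for Aplnr. Pcsk5, a proprotein convertase, read 304 and 271 in the KO arrays, against 879.8 and 746 in the WT arrays (-1.50 ± 0.16, adjusted p = 0.0044). Pcdh18, a protocadherin, differed by -1.50, Fbn2, a fibrillin of embryonic matrix, by -1.48, and Hapln1, a hyaluronan link protein, by -1.98.

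The lists of streak, mesoderm and transition genes held further calls. Of 14 primitive streak and mesoderm factors 2 were called lower, none was higher, 8 lay below both WT arrays, and the median was -0.78. Beside Meis2 the call was Twist1, a factor of head mesenchyme, at 181 and 190.4 in the KO arrays, against 287 and 473 in the WT arrays (-0.99 ± 0.19). Mesp1, a factor of the earliest cardiac mesoderm, read 62.3 and 60.4 in the KO arrays, against 475 and 118 in the WT arrays, and Mixl1, a homeobox factor of the streak, read 426 and 256 in the KO arrays, against 1413 and 575 in the WT arrays. Neither passed (adjusted p = 0.11 and 0.15), and for both WT replicate 1 was the high array while all KO values lay below both WT values. Of 8 genes of epithelial-mesenchymal transition 2 were called lower and 7 lay below both WT arrays. Zeb2, a repressor of E-cadherin, was called at 96.8 and 81.9 in the KO arrays, against 165 and 250.1 in the WT arrays (-1.19 ± 0.22) beside Cdh11, and Snai2, another such repressor, differed by -1.72 ± 0.37 without a call, although its other probe set was called lower (-1.47, limma adjusted p = 0.039). Of 24 Hox genes, Hoxb1 (-1.28 ± 0.26) and Hoxb5 (-0.76 ± 0.15) were called lower, neither of them in the stretch of chromosome 6 described below, and both dim, at 16.2 and 15.9 in KO and 54.9 and 27.8 in WT for Hoxb1.

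The WT arrays were far apart for collagen and fibroblast genes. Of 15 such genes 2 were called lower, namely the PDGF receptors, 8 lay below both WT arrays, and the median was -0.52. The same genes were a median of 0.95 log2 units higher in WT replicate 2 than in WT replicate 1. Col3a1, a fibrillar collagen, read 866 and 1246 in the KO arrays, against 2516 and 10068 in the WT arrays, and Col1a1 read 412 and 371 in the KO arrays, against 568 and 2376 in the WT arrays. Both KO values of Col1a1 lay below both WT values, but WT replicate 1 was nearer to KO than to WT replicate 2. Among 18 proteoglycans and remodeling genes none was called, and Lum, a collagen-binding proteoglycan, read 50.9 and 45.5 in the KO arrays, against 173 and 1545 in the WT arrays, Postn, a matrix protein of mesenchyme, 528 and 681 in the KO arrays, against 846 and 7011 in the WT arrays, and Dcn, another proteoglycan, 72 and 69.8 in the KO arrays, against 97.9 and 479 in the WT arrays. In each the value of WT replicate 2 was above those of the other 3 arrays. Feeder fibroblasts express these genes, the share of feeder cells on each array was not measured, and its part in these differences was not tested. In bulk samples, fewer cells of a type and less RNA in each cell cannot be told apart. Lama5, a laminin of epithelial basement membranes, was called higher at 1009 and 1043 in the KO arrays, against 659.8 and 576 in the WT arrays (0.73 ± 0.13), the 1 call of 12 basement membrane genes.

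**Figure D2:**
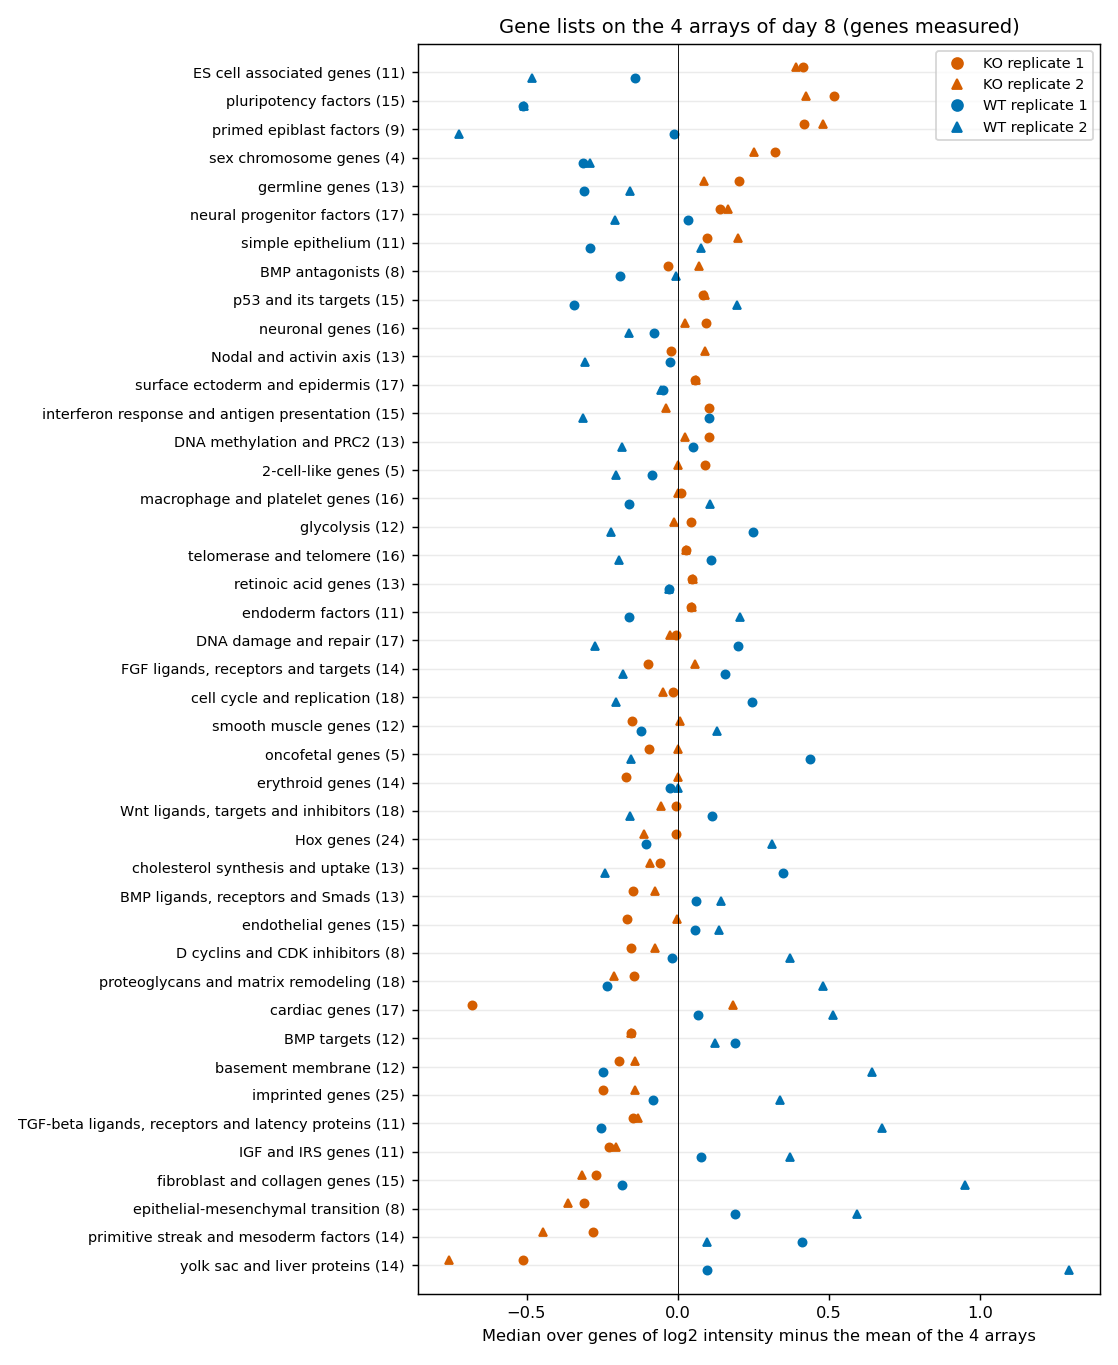
Median over the genes of each of the 43 lists of the log2 intensity minus the mean of the 4 arrays of day 8, with the number of genes measured in parentheses. KO arrays are orange and drawn above the WT arrays in blue, and lists run by their median difference from ES cell associated genes (0.90) at the top to yolk sac and liver proteins (-1.49) at the bottom.

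Imprinted genes, which are read from 1 parental copy, held the largest difference of all called genes. Mest, a hydrolase-like gene read from the paternal copy, measured 161 and 254 in the KO arrays, against 2167 and 2929 in the WT arrays, so WT averaged 12.3 times the KO level (-3.64 ± 0.49, limma adjusted p = 0.015). On chromosome 12 the maternally read noncoding RNAs stood above WT and the paternally read gene below. Mirg, a host of microRNAs, was called higher at 348 and 249 in the KO arrays, against 79.7 and 79.6 in the WT arrays (1.89 ± 0.28, adjusted p = 0.015). Meg3 measured 3208 and 2847 in the KO arrays, against 923 and 1000.5 in the WT arrays (1.65 ± 0.33) and missed the threshold at an adjusted p of 0.052 on its brightest probe set, while 6 of its 10 other probe sets were called higher and none lower. Dlk1, a Notch-related ligand of the same cluster, measured 444 and 762 in the KO arrays, against 1713 and 5746 in the WT arrays (-2.43 ± 0.48, adjusted p = 0.055). All KO values of these genes lay outside the WT values. Phlda2, a placental growth restrictor read from the maternal copy of another cluster, measured 552 and 416 in the KO arrays, against 2674 and 1163 in the WT arrays and did not pass. Over 25 imprinted genes 8 lay above and 11 below both WT arrays, with 1 call each way and a median of -0.39. Counted on any probe set, 4 were called higher and 1 lower, and the additions were Meg3, Rian and Ascl2. Of the 25 genes 3 lie in the chromosome 6 stretch described below.

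The promoter window of Mest is shown because it belongs to the gene with the largest called difference. Of its 3 annotated starts, the window with the most CG dinucleotides is given (RefSeq, build GRCm38.p6, chr6:30737800-30738079, plus strand), with each CG in capitals.
Mest: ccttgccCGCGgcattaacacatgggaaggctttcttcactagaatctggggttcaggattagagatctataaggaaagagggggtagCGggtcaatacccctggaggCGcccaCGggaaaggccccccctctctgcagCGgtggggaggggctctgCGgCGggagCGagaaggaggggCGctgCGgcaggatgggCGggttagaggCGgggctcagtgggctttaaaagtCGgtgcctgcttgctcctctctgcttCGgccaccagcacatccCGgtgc
This window of 280 bases holds 16 CG dinucleotides, and 30.3% of all promoter windows of that length hold at least as many. Methylation was not measured in these samples.

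Of the 140 genes lower in KO, 59 (42.1%) lay in 1 stretch of chromosome 6, which held 433 (2.38%) of the 18193 genes. The stretch was found after the day 8 differences had been seen, by placing the 9437 genes with a mean intensity of at least 100 in the gene order of GRCm38.p6 and splitting chromosome 6 where the differences changed level. It ran over 171 such genes from Vps50 to Suclg1, and Gcfc2 was the first gene after it. Within it 168 of 171 genes had a negative difference, and 159 (93.0%) had both KO arrays below both WT arrays, against 24.9% of the 261 genes on the rest of chromosome 6 and 25.1% of 9005 genes on other chromosomes. The median difference in the stretch was -0.76, a KO to WT ratio of 0.59, with quartiles of -0.91 and -0.56. It was -0.02 on the rest of chromosome 6 and -0.03 on other chromosomes. Both KO arrays showed it alike, with medians of -0.74 and -0.74 against the WT mean. No gene of the stretch was called higher. In running medians over 21 genes the lowest value was -0.90 on chromosome 6, and on the other chromosomes no running median was below -0.36 or above 0.23.

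The other days were not used to place the stretch. At day 15 its median was -0.70, and 95 of the 171 genes were called lower and 2 higher. At day 0 the 2 KO lines differed from each other. In line A49 the median over the stretch was -0.50 against the WT mean, and 141 of 171 genes were below 0, while in line F35 the median was 0.02 and 78 genes were below 0. Which line gave the day 8 arrays is not in the labels. The paper describes the KO cells of its arrays as G4, its line A49, although the day 0 labels also name F35. DNA copy number was not measured. The genes of the stretch include Mest, Ptn, Wnt2, Evx1 and Reep1 of the 15 largest lower calls. Ptn, a heparin-binding growth factor, read 45.7 and 85.6 in the KO arrays, against 237 and 780.3 in the WT arrays (-2.78 ± 0.50), and of its 2 dimmer probe sets 1 was called lower too and the other was flat. Wnt2, a Wnt ligand, read 31.4 and 33.7 in the KO arrays, against 118 and 201 in the WT arrays (-2.25 ± 0.31), Evx1, a homeobox factor of the streak, read 75.7 and 75.5 in the KO arrays, against 469 and 226 in the WT arrays (-2.11 ± 0.34), and Reep1, a protein of the endoplasmic reticulum, read 44.2 and 53.7 in the KO arrays, against 157 and 123 in the WT arrays (-1.51 ± 0.24). Their differences exceeded the median of the stretch.

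Ezh2 also lies in the stretch, as do a telomere gene and an oncofetal gene of the lists. Ezh2, the methyltransferase of Polycomb repressive complex 2, read 1008 and 979 in the KO arrays, against 1961 and 1675 in the WT arrays, a difference of -0.87 ± 0.20 that did not pass (adjusted p = 0.074). In day 0 cells its difference was -0.81 in line A49 and -0.02 in line F35. Eed, another subunit of that complex, encoded on chromosome 7, read 1569 and 1574 in the KO arrays, against 1297 and 1243 in the WT arrays. Pot1a, a protein of the telomere cap, read 121 and 119 in the KO arrays, against 296 and 214 in the WT arrays (-1.07 ± 0.27, adjusted p = 0.1), and at day 0 its difference was -1.21 in A49 and -0.14 in F35. Igf2bp3, a fetal RNA-binding protein, read 930.4 and 1028 in the KO arrays, against 1784 and 1636 in the WT arrays (-0.80 ± 0.19), and 2 of its 5 other probe sets were called lower. For these 3 genes both KO values lay below both WT values, and each difference was further from 0 than the median of the stretch. Of the 24 measured Hox genes 6 lie in the stretch, and of the 15 fibroblast and collagen genes 1 does.

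**Figure D3:**
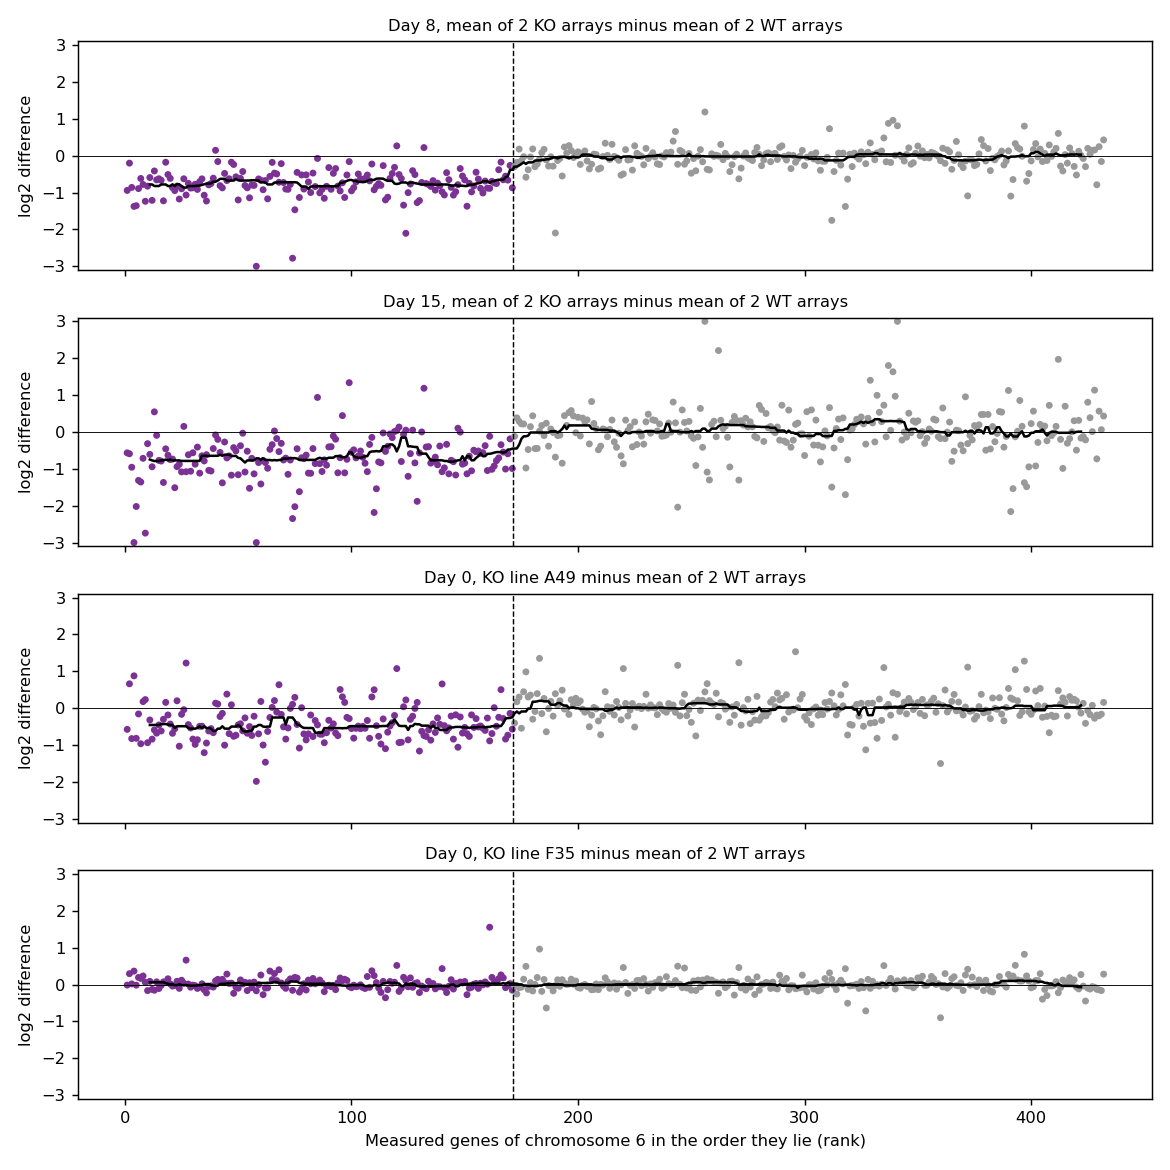
Log2 difference from WT for 432 genes of chromosome 6 with a mean intensity of at least 100, in gene order, at day 8, at day 15 and for each KO line at day 0. Points are genes (purple before and grey after the dashed line between Suclg1 and Gcfc2, drawn at the axis limit of 3 where larger), black lines are running medians over 21 genes, and the purple medians are -0.76, -0.70, -0.50 and 0.02 from top to bottom.

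Endoderm factors split. Hhex, a homeobox factor of anterior endoderm and blood progenitors, was called higher at 301 and 318 in the KO arrays, against 142 and 122 in the WT arrays (1.24 ± 0.13, limma adjusted p = 0.0044), with both pairs tight. Gata6 and Gata4, factors of primitive endoderm, read 382 and 359 in KO and 641 and 1275 in WT for Gata6 and 289.9 and 277 in KO and 404 and 385 in WT for Gata4. Both lay below WT without passing (adjusted p = 0.086 and 0.1). Yolk sac and liver proteins had the lowest median of the 43 lists, -1.49, and 11 of 14 lay below both WT arrays, yet none was called on its brightest probe set. Afp, the fetal serum protein, read 71.3 and 113 in the KO arrays, against 399 and 993 in the WT arrays (-2.81 ± 0.60, adjusted p = 0.069), Apoa1, an apolipoprotein, 93.1 and 114 in the KO arrays, against 241 and 355 in the WT arrays (-1.50 ± 0.31), and Ttr, a thyroid hormone carrier, 529 and 359 in the KO arrays, against 923 and 2268 in the WT arrays (-1.73 ± 0.39). Rbp4, the retinol carrier, read 216 and 409 in the KO arrays, against 651 and 2006 in the WT arrays. On other probe sets both Afp (-3.19 and -2.70, limma adjusted p = 0.032 and 0.043) and Apoa1 (-1.69 and -1.69, adjusted p = 0.039 and 0.021) were called lower. In all 4 genes WT replicate 2 was the highest array, and over the 14 genes it was a median of 1.14 log2 units above WT replicate 1.

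The lists of blood, vessel, cardiac and smooth muscle genes, which do not hold Tbx20, had no call on any probe set (limma). Among 14 erythroid genes the embryonic globin Hbb-y read 16.9 and 23.7 in the KO arrays, against 26.9 and 423 in the WT arrays, and Hbb-bh1 read 30.2 and 37.6 in the KO arrays, against 79.1 and 499 in the WT arrays. In both globins WT replicate 2 stood far above the other 3 arrays. Gata1, the erythroid factor, was dim on all arrays at 38 and 38.8 in KO and 34.1 and 32.4 in WT. Of 16 macrophage and platelet genes 3 reached a group mean of 100. Laptm5, a lysosomal protein of leukocytes, read 192 and 163 in the KO arrays, against 49.9 and 73.8 in the WT arrays (1.55 ± 0.35, adjusted p = 0.077), and Cd68, a macrophage lysosomal protein, read 139.5 and 139 in the KO arrays, against 84.3 and 96.9 in the WT arrays. Both lay above WT without passing. Of 15 endothelial genes 6 lay below both WT arrays. Kdr, a VEGF receptor of vessels and their precursors, read 165 and 162 in the KO arrays, against 617 and 319 in the WT arrays, and Cdh5, the vessel cadherin, read 33.4 and 35.5 in the KO arrays, against 54.4 and 62.3 in the WT arrays with an adjusted p of 0.056. Among 17 cardiac genes Hand2, a heart and limb factor, differed by -1.83 ± 0.41 and Myh6, a cardiac myosin, by -1.53 ± 0.54, and the 2 KO arrays differed most for this list. Of 12 smooth muscle genes 1 lay above and 2 below both WT arrays. Acta2, smooth muscle actin, read 7028 and 8218 in the KO arrays, against 7145 and 13620.0 in the WT arrays with overlap, and Actg2 read 80 and 67.6 in the KO arrays, against 133 and 746 in the WT arrays.

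Neural genes were partly higher in KO. Of 17 neural progenitor factors 2 were called higher, 10 lay above both WT arrays and 1 below, and the median was 0.30. Beside Hesx1 the call was Olig2, a factor of motor neuron and oligodendrocyte precursors, at 165 and 139 in the KO arrays, against 69.3 and 43 in the WT arrays (1.47 ± 0.25, limma adjusted p = 0.024). Olig1, its neighbor on chromosome 16, read 445 and 468 in the KO arrays, against 347 and 176 in the WT arrays and did not pass. Of 16 neuronal genes, Stmn2 was the call. Nefm, a neurofilament, read 286 and 262 in the KO arrays, against 57.1 and 31 in the WT arrays, a difference of 2.70 ± 0.76 that did not pass (adjusted p = 0.15) although the arrays were far apart. Genes of surface ectoderm and epidermis were not called in either direction. Of 17 measured genes 8 lay above both WT arrays and none below, with a median of 0.10, and 6 reached a group mean of 100. Krt14, a keratin of basal epidermis, read 23.9 and 22 in the KO arrays, against 19.9 and 33.6 in the WT arrays, and Krt5, its partner, read 58.8 and 48 in the KO arrays, against 42.1 and 50 in the WT arrays. Trp63, which encodes p63, the factor of epidermal stem cells, read 15.5 and 17.7 in the KO arrays, against 15 and 14 in the WT arrays, and Krt1, a keratin of upper layers, read 26.6 and 25.3 in the KO arrays, against 23.3 and 23.3 in the WT arrays. These 4 genes were dim in both groups, with Krt14 at percentile 28.4 in KO and 33.8 in WT. Grhl2 (548 and 543 in KO and 379.9 and 380.3 in WT) and Grhl3 (139 and 144 in KO and 59.5 and 100.4 in WT), factors of epithelial barriers, lay above both WT arrays without passing.

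Among nuclear functions calls were few. Dnmt3l, the cofactor of de novo DNA methylation, was higher at 847 and 831 in the KO arrays, against 319.6 and 246 in the WT arrays, a 2.97-fold difference (1.58 ± 0.24, limma adjusted p = 0.016), the 1 call of 13 genes of DNA methylation and Polycomb. Dnmt3b, a de novo methyltransferase, read 5024 and 4616 in the KO arrays, against 4129 and 2346 in the WT arrays without a call. Piwil2, a germline Argonaute, was called at a low level of 36.9 and 36.2 in KO and 17 and 17.1 in WT, the 1 call of 13 germline genes, of which 9 lay above both WT arrays. None of 18 cell cycle genes, 17 DNA damage and repair genes, 15 p53 genes or 16 telomere genes was called, and their medians were between -0.05 and 0.15. Pmaip1, a p53-induced killer gene, read 755 and 762 in the KO arrays, against 1361 and 1636 in the WT arrays and lay below WT (adjusted p = 0.095). Tert, the protein subunit of telomerase, read 139.9 and 114 in the KO arrays, against 100.2 and 67.5 in the WT arrays (0.62 ± 0.18, adjusted p = 0.15). Ifitm3, an interferon-induced membrane protein also expressed by germ cells, was higher at 5523 and 4806 in the KO arrays, against 3534 and 2789.8 in the WT arrays (0.71 ± 0.14), the 1 call of 15 interferon genes. Its relatives are similar in sequence, so the reading is uncertain. Over all 43 lists, beside 0.77% of all genes each way, 17 of 578 measured genes were called higher and 14 lower, and 21 lists held no call. With a call on any probe set of a gene counted, these numbers were 23, 20 and 20 lists, and 12 genes were added. Of 26 genes that the study names for its arrays or follows by other means, limma called none at day 8 on the brightest probe set and Afp on others. Of these 26 genes 8 lay above both WT arrays and 5 below, beside 27.2% and 18.5% of all genes, and 13 overlapped.

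The 2 WT arrays of day 8 differed in a way that touched many of these groups. Over 2-fold apart were 531 genes, 403 with WT replicate 2 above and 128 with WT replicate 1 above. For the 403 genes the KO mean was nearer to WT replicate 1 in 355, and its median difference was 0.11 from WT replicate 1 and -1.18 from WT replicate 2. For the 128 genes the KO mean was nearer to WT replicate 1 in 80. At day 15 the WT mean was above WT replicate 1 of day 8 in 372 of the 403 genes and below it in 120 of the 128. The genes were chosen by the gap between these 2 WT arrays, so another value tends to lie on the side of WT replicate 2. Whether WT replicate 2 was nearer to the later WT arrays was therefore not tested by these counts. WT replicate 1, to which KO was nearer, was the WT array with less collagen, globin and yolk sac protein signal. In KO 138 of the 403 genes lay below both WT arrays and 4 above both, beside 18.5% and 27.2% of all genes. The 403 genes were chosen for a high WT replicate 2, so a KO value below that array was favored by the choice. Of all 531 genes limma called 6, beside 0.77% of all genes called each way. The gap that chose these genes also enters the spread that limma uses, so the choice itself favored few calls. Among the genes named here, 50 were called, and 28 of these were no longer called without WT replicate 2. The 16 that were called in each of 10 alternative settings in which they were tested and both KO arrays were kept were Irs4, Chga, Nptx2, Hesx1, Cer1, Pla2g1b, Klf2, Gdf3, Lefty1 and Hhex, which were higher, and Wnt2, Pdgfra, Pcsk5, Pcdh18, Smad6 and Fgfr3, which were lower. The fit on only the 4 arrays of day 8, which also kept both KO arrays, is not among the 10, and in it none of the 50 was called.

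**Figure D4:**
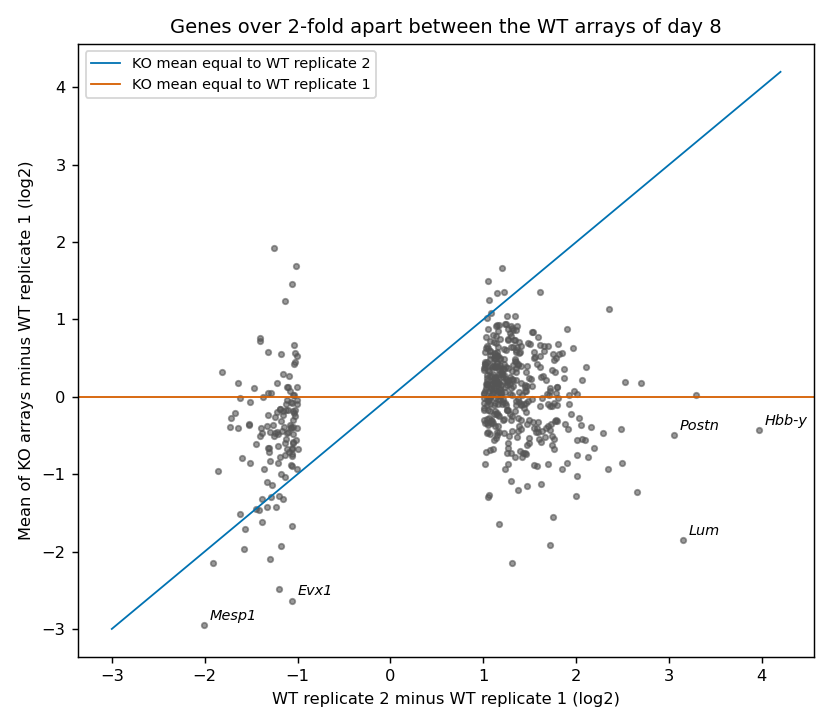
The 531 genes over 2-fold apart between the 2 WT arrays of day 8. The x axis is WT replicate 2 minus WT replicate 1 and the y axis the mean of the KO arrays minus WT replicate 1, both log2, and of the 403 points on the right 355 lie nearer to the orange line, where KO equals WT replicate 1, than to the blue line, where KO equals WT replicate 2.

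The day 15 arrays of other samples showed most of the day 8 differences again. Both comparisons used the same estimate of spread for each probe set. Genes called at day 8 partly for a small spread were therefore more readily called at day 15. At day 15 limma called 8.77% of genes higher and 8.31% lower in KO. Of the 140 genes higher at day 8, 102 were called higher at day 15 and 2 lower, and of the 140 lower at day 8, 119 were called lower and none higher. Their median differences were 0.90 and -1.06 at day 15, beside 0.96 and -0.98 at day 8. At day 0, where the KO group averages the lines F35 and A49, the same genes had medians of 0.11 and -0.08. Of the 140 lower genes 59 lay in the chromosome 6 stretch, where the lines differed at day 0. The median of the stretch was then -0.50 in A49 and 0.02 in F35. Mest measured a difference of -4.74 ± 0.49 at day 15, Cdh11 -2.48 ± 0.34, Stmn2 3.74 ± 0.37 and Lefty1 2.43 ± 0.17. For each of these the sign was that of day 8.

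The change between the days was tested as an interaction, the KO minus WT difference at day 15 minus that at day 8. It was called above 0 for 41 genes (0.225%) and below 0 for 79 (0.434%). The differences share the fit but no arrays. Among the 5 genes furthest above 0, Eras, an ES cell GTPase, differed between KO and WT by 1.24 at day 8 and 3.65 at day 15 (interaction 2.41 ± 0.41, limma adjusted p = 0.044), and Tdgf1, the Nodal coreceptor Cripto, by 0.34 and 4.24. Eomes, a T-box factor of the streak, read 1736 and 1538 in the KO arrays, against 2902 and 1183 in the WT arrays at day 8, with overlap, and 848 and 609 in KO and 89.2 and 118 in WT at day 15. Dnmt3b and Olig1 were the others. The 5 genes furthest below 0 were C1qc, Mrc1, Tyrobp and Ctss of macrophages and Fabp4, a fatty acid carrier of fat cells, macrophages and vessels. C1qc read 24.5 and 27.8 in KO and 15.3 and 18.7 in WT at day 8 and 23.9 and 25.1 in KO and 534 and 210.0 in WT at day 15, so the difference appeared where the WT level was high. Sfrp1 and Tle2 were the 2 genes called higher at day 8 and lower at day 15. For Sfrp1 the difference was 1.22 at day 8 and -0.87 ± 0.24 at day 15 (interaction adjusted p = 0.032), with 1021 and 1123 in KO and 2364 and 1610.2 in WT at day 15. Tle2, a Groucho corepressor picked here for this turn after its values were seen, differed by 0.69 and -1.09 (interaction adjusted p = 0.0056). Krt5 differed by 0.21 at day 8 and -1.37 at day 15 (interaction adjusted p = 0.011). The probe sets called for the interaction numbered 62 above and 128 below 0. With the 8 arrays of days 8 and 15 alone they numbered 3 and 26, without WT replicate 2 of day 8 1026 and 704, without KO replicate 1 of day 8 5 and 24, and without KO replicate 2 of day 8 9 and 35.

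**Figure D5:**
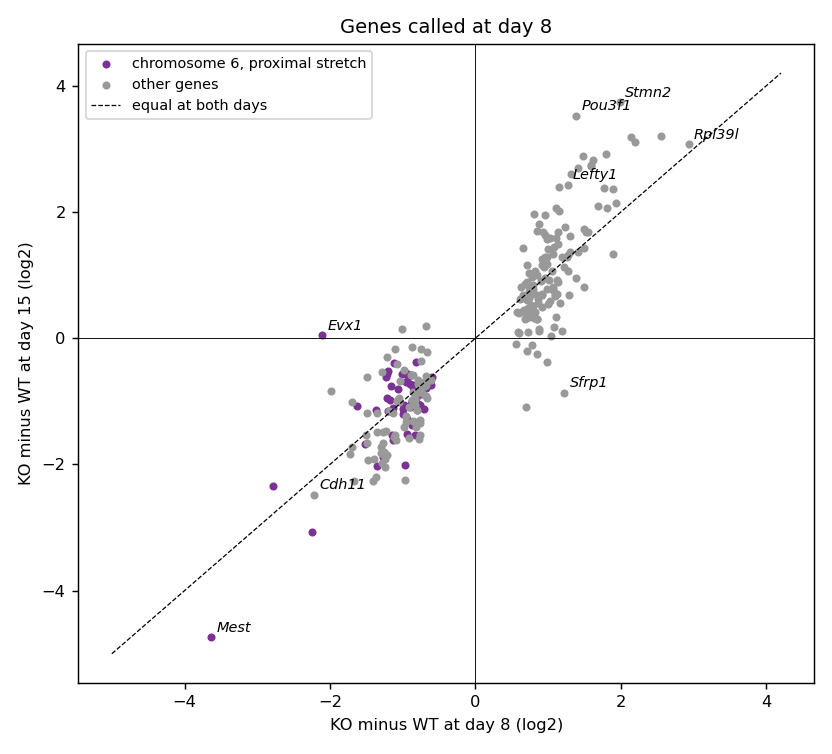
KO minus WT at day 15 against KO minus WT at day 8 (log2) for the 280 genes called at day 8. Points are genes, purple for the 59 in the chromosome 6 stretch and grey for the others, the dashed line marks equal differences, and 102 of the higher and 119 of the lower genes were called in the same direction at day 15.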

How the data were processed

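ES cells and their embryoid body derivatives were measured on 12 Affymetrix mouse arrays, 2 for each of 6 groups. Intensities on a linear scale were deposited by the authors. MAS5 is named as their algorithm in the submission, without a version or settings. The arrays of day 0 were scaled apart from the others (medians 114 to 117 against 50.7 to 53.1), so levels of day 0 were not set against those of other days. MAS5 scaling sets arrays to a common level and would hide a change shared by all genes. Values under 1 were set to 1 and log2 taken. Of 45101 probe sets 64 controls were left out. Each of 18193 genes was read from its brightest probe set with a single symbol in the platform annotation. limma 3.58.1 (R 4.3.3), with trend and robust moderation, was fitted with 1 mean for each group, 6 residual degrees of freedom and Benjamini-Hochberg adjustment over 45037 probe sets. The fit was also run on simulated data. There each probe set had the same spread in every group, so the wide WT pair of day 8 was not reproduced. Genes were named as the 15 largest calls each way with a group mean of at least 100, the 5 smallest p-values of each of 43 lists, the 26 genes followed in the study with Tbx3, and the 5 largest interactions each way. Values are given for a part of them. The members and lists were chosen with earlier results of these data known. The authors' deposited table held no column of another series (0 not used). The number of arrays limits the precision. Gene order, promoters and chromosomes come from RefSeq (GRCm38.p6), and, because the files name no build, coordinates are given for the 2 promoter windows alone.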

Additional observations from a re-analysis of the deposited data

Results flagged for a closer look

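The KO to WT difference was itself tested between day 15 and day 8, and it changed for these named genes (limma interaction, day 15 minus day 8, log2, n = 2 arrays in each group). The log2 difference moved up between day 8 and day 15 for Tdgf1 (3.90, adjusted p = 0.033), Olig1 (3.04, 0.038), Eomes (2.99, 0.047), Eras (2.41, 0.044), Dnmt3b (2.27, 0.031) and Sfn (1.61, 0.032), the last a cell cycle inhibitor of epithelia that differed by 0.32 at day 8 and 1.94 at day 15.

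It moved down between day 8 and day 15 for C1qc (-4.40, adjusted p = 0.014), Mrc1 (-4.37, 0.034), Tyrobp (-4.36, 0.023), Fabp4 (-3.56, 0.042), Ctss (-3.35, 0.032), Sfrp1 (-2.09, 0.032), Tle2 (-1.78, 0.0056) and Krt5 (-1.58, 0.011). The macrophage genes were dim at day 8. Mrc1 read 15.5 and 17.3 in KO and 12 and 16.8 in WT, Tyrobp 27 and 25.1 in KO and 24.4 and 32.2 in WT and Ctss 33.6 and 20.3 in KO and 23.8 and 32.5 in WT, and their groups overlapped at that day. Fabp4 read 42.1 and 62.4 in KO and 19.4 and 17.8 in WT at day 8 without a call (1.46 ± 0.41).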

How the results depend on the processing

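All 231 higher and 277 lower probe sets kept their direction at day 8 in every other fit in which they were tested. For many of these fits this was fixed in advance. Fits on fewer days, with weights per group, with the replicate block or without moderation keep the same day 8 group means. The 280 called genes had no overlap between the groups, so leaving out 1 array could not turn their sign. The number of calls moved. The counts of higher and lower probe sets were 118 and 176 with only the 8 arrays of days 8 and 15, 99 and 124 with weights per group, and 0 and 0 with only the 4 arrays of day 8, where 4702 had an unadjusted p under 0.05. Quantile normalization gave 181 lower, and only probe sets above the median level gave 155 higher. Without the genes of the chromosome 6 stretch, a setting chosen after seeing the data, 179 lower calls were left. Leaving out 1 array gave between 1 and 1051 higher and between 4 and 1574 lower. The methods of the study name a t-test in their general statistics and no test for the arrays. An unpaired t-test on the 4 arrays gave 2365 higher and 1499 lower at an unadjusted p under 0.05, and 0 and 0 after Benjamini-Hochberg adjustment. The 1.8-fold rule on linear means gave 297 higher and 732 lower. The replicate block gave 124 and 142. The titles number the arrays without saying whether same-numbered arrays were paired. Deviations of same-numbered arrays correlated at 0.04 at day 8, 0.01 at day 0 and -0.06 at day 15. They thus had little in common, which cannot settle whether the samples were paired. The causes of these shifts were not tested.

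At least 2-fold separation was met by 99 probe sets above and 89 below. With 32 added it was 38 and 33, with any gap 11561 and 8019, with 4-fold 2 and 3, and without 1 array 128 to 267 above and 141 to 735 below. The interaction counts of 62 above and 128 below became 33 above with 32 added, 29 above with quantile normalization, 38 above without trend and robust moderation, 36 and 53 with only brighter probe sets, 36 above with weights per group, 3 and 26 with the 8 arrays, 14 and 62 with the replicate block, and 5 to 1026 and 24 to 704 without 1 array. Of the 50 called genes named here, 43 stayed called with 32 added, 40 with quantile normalization, 29 with weights per group, 31 with the replicate block, and 1 and 0 without a KO array.

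Without 1 array some uncalled differences changed sign. Their ranges were Acta2 -0.84 to 0.089, Krt14 -0.55 to 0.21, Tdgf1 -0.054 to 0.73, Eomes -0.83 to 0.47, Mrc1 -0.040 to 0.45, Tyrobp -0.31 to 0.095 and Ctss -0.45 to 0.27.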

Other observations

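Beside Hmga2, the 1 call among 5 oncofetal genes, the lists not described above held no call on the brightest probe sets. Of 11 simple epithelium genes, which include keratins and adhesion molecules of single-layered epithelia, 5 lay above both WT arrays and none below, and the median was 0.29. Of 8 D cyclins and CDK inhibitors 3 lay below and none above, with a median of -0.22. The 12 glycolysis and 13 cholesterol genes had medians of 0.04 and -0.12 although both lists were lower in WT replicate 2 than in WT replicate 1, by medians of 0.51 and 0.61 log2 units. The median was 0.02 for 13 retinoic acid genes, 0.16 for 8 BMP antagonists and 0.08 for 5 genes of 2-cell-like cells, beside 0.03 over all genes. All 4 sex chromosome genes, 3 Y-linked genes and Xist, lay above both WT arrays in KO without a call, with a median of 0.50.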
